A study of Mus musculus with 4 samples.

Results

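Enpp6-rule nuclei are nuclei of cortex and hippocampus selected on their own counts as candidates for immature, premyelinating oligodendrocytes. Counts are UMIs (unique molecular identifiers, each standing for 1 captured RNA molecule). Nuclei were kept when they had over 600 genes and a mitochondrial share under 5%. A kept nucleus was a member when it held at least 1 UMI of Enpp6, at least 2 UMIs of Bcas1, of Gpr17 or of 9630013A20Rik, no UMI of Pdgfra, and at most 2 UMIs of Slc17a7, Gad1 and Gad2 together. The rule took 686 of 36094 nuclei. Since these genes chose the nuclei, their levels are given as a description.

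The mice were 5 weeks old on a C57BL/6J background. Both Sel1L flox/flox mice carry floxed alleles of the gene for SEL1L, the partner of the ubiquitin ligase HRD1 in endoplasmic reticulum (ER)-associated degradation, and served as controls. Both Sel1L Syn-Cre mice carry the same floxed alleles plus Cre recombinase under the Synapsin I promoter, which is active in neurons, so that oligodendrocytes were not the cells targeted for deletion. Each library came from 1 mouse (n = 2 per genotype), and all nuclei were sorted by flow cytometry before capture.

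Oligodendrocytes arise from dividing precursors that carry the PDGF receptor PDGFRA. A precursor that leaves the cell cycle passes through a short premyelinating stage, in which it switches on Enpp6, a choline phosphodiesterase, Bcas1, a gene of early myelinating processes, Gpr17, a receptor that holds back maturation, and the long noncoding RNA 9630013A20Rik. It then dies or begins to wrap axons and turns up the genes of compact myelin such as Mbp and Mog. Nuclei of this stage therefore mark oligodendrocytes newly formed at the time of sampling.

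The rule genes have neighbours on the other strand, and whether the counting used strand is not given in the sources used here. Enpp6 (chr8:46986887-47096762, plus strand, GRCm38) overlaps 4930579M01Rik and Gm45600. Bcas1 (chr2:170346991-170427845, minus strand) overlaps Bcas1os1 and Bcas1os2, and 9630013A20Rik (chr14:84458639-84476424, minus strand) is annotated as antisense and overlaps Pcdh17. Gpr17 overlaps Lims2. Counts of these genes are uncertain to that extent, and among the 20 most changed genes described below so are those of Htra1, which overlaps Fgfr2, of Cacna2d4, which overlaps Lrtm2, and of Fkbp5, Slc1a2, Ppfibp1, Vcan and Frmd4a, which overlap other annotated transcripts.

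Libraries are named here by their labels, with values in the order Sel1L flox/flox replicate 1, Sel1L flox/flox replicate 2, Sel1L Syn-Cre replicate 1 and Sel1L Syn-Cre replicate 2. They held 12362, 8436, 8065 and 7231 kept nuclei, with medians of 7809, 7580, 7691 and 8648 UMIs per nucleus. Any pair of libraries shared between 10 and 34 cell barcodes.

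The checks of genotype did not all bear out the labels, and each direction below is one between libraries as labelled. Over all kept nuclei Sel1l, the deleted gene, had 97.1, 90.1, 157 and 130 CPM (UMIs of the gene scaled to a common total), higher in the Syn-Cre libraries. A 3′ count of the whole gene does not show whether the floxed exon is present. The Cre transgene had 490 UMIs in flox/flox replicate 1, 0 in flox/flox replicate 2, and 262 and 260 in the Syn-Cre libraries. Derl3, an ER degradation factor that rises under ER stress, had 0.562, 0.535, 17.1 and 10.5 CPM over all kept nuclei, and the chaperone gene Hspa5 24.7, 24.9, 73.5 and 52.4, both higher in the libraries labelled Syn-Cre. Cre had 25, 0, 19 and 11 UMIs in Pdgfra-rule nuclei and 4, 0, 0 and 0 in myelin-rule nuclei, both defined below. In the Enpp6-rule nuclei themselves Cre had 2, 0, 0 and 0 UMIs. Their Sel1l level was 123, 109, 221 and 114 CPM, with a log2 fold change of 0.62 ± 0.31 (SE) that did not pass the threshold (edgeR, adjusted p = 0.451). Xist, the RNA of the inactive X chromosome, had 52, 124337, 170 and 110119 UMIs, so that each genotype held 1 mouse of each sex.

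Enpp6-rule nuclei were fewer in both Syn-Cre libraries. They numbered 428, 164, 65 and 29, which is 3.46% of kept nuclei (95% Wilson interval 3.15 to 3.80), 1.94% (1.67 to 2.26), 0.806% (0.633 to 1.03) and 0.401% (0.279 to 0.575). The groups did not overlap. The mean share was 2.70% ± 1.07 in Sel1L flox/flox and 0.604% ± 0.286 in Sel1L Syn-Cre mice (SD, n = 2), a ratio of 4.48. That ratio was 3.22 without flox/flox replicate 1 and 5.74 without flox/flox replicate 2. It was 6.74 without Syn-Cre replicate 1 and 3.35 without Syn-Cre replicate 2. The intervals cover counting error only. The exact permutation p (two-sided) was 0.33, the smallest that the 6 arrangements of 2 against 2 libraries can give.

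The neighbouring stages of the lineage did not all move alike. Pdgfra-rule nuclei, which hold at least 2 Pdgfra UMIs and no Enpp6, numbered 336, 345, 278 and 226, or 2.72%, 4.09%, 3.45% and 3.13% of kept nuclei, and the genotypes overlapped. Myelin-rule nuclei, which hold at least 2 UMIs of at least 2 of the myelin genes Mog, Mag and Mobp and no Enpp6, numbered 1327, 886, 253 and 242, or 10.7%, 10.5%, 3.14% and 3.35%. Per 100 Pdgfra-rule nuclei there were 127, 47.5, 23.4 and 12.8 Enpp6-rule nuclei, again without overlap between genotypes (exact permutation p = 0.33). Per 100 myelin-rule nuclei there were 32.3, 18.5, 25.7 and 12, and here the genotypes overlapped (exact permutation p = 0.667). The difference in the last ratio, -6.54 per 100, turned to 0.327 without flox/flox replicate 1 and to 0.310 without Syn-Cre replicate 2, and grew to -13.4 without flox/flox replicate 2.

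**Figure D1:**
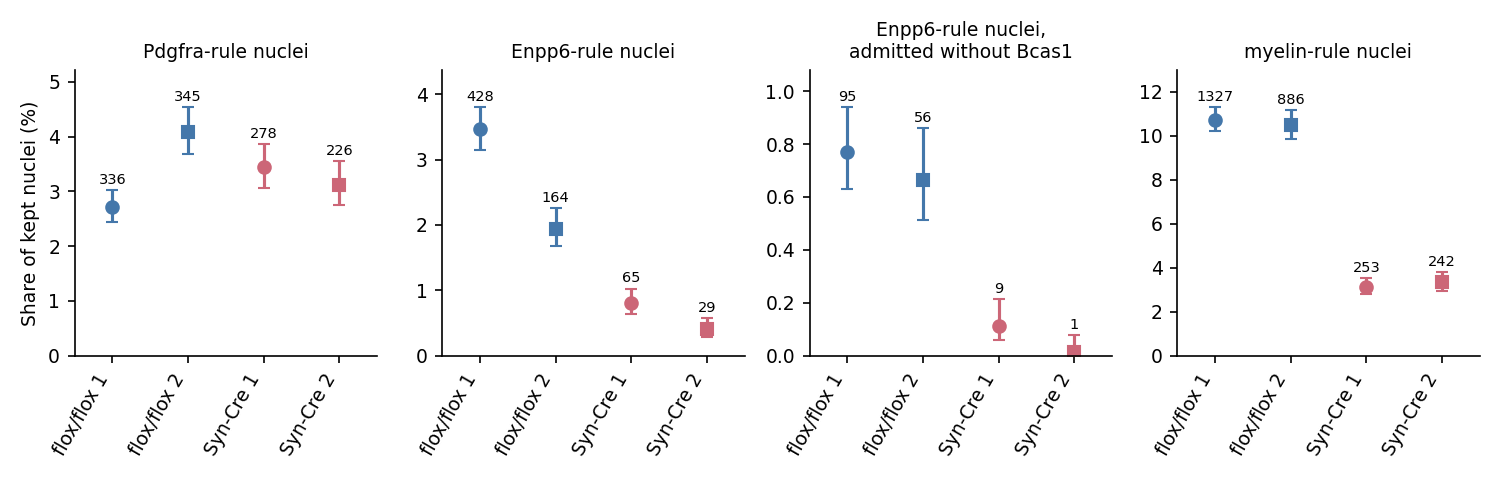
Share of kept nuclei (percent, axes from 0) in each library for Pdgfra-rule nuclei, Enpp6-rule nuclei, Enpp6-rule nuclei without use of Bcas1, and myelin-rule nuclei. Those without use of Bcas1 met the rule by Gpr17 or 9630013A20Rik, whatever their Bcas1 count. Points are libraries, bars are 95% Wilson intervals and the number above each point counts its nuclei, and the Syn-Cre libraries lie below both flox/flox libraries in the second to last panels (0.806% and 0.401% against 3.46% and 1.94% for Enpp6-rule nuclei) and among them for Pdgfra-rule nuclei.

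The label of premyelinating oligodendrocyte described a minority of the Enpp6-rule nuclei by its markers. Of the 686, 170 (24.8%) held at least 5 of the 13 premyelinating markers that the rule did not use. When nuclei were clustered without the rule genes, the cluster with the highest share of UMIs on these 13 markers was picked, and it took 152 of the 686 (22.2%). It is called premyelinating-like below only because it was picked on these markers, so their levels in it follow from the choice and do not test the name. The genes that led it were 9630013A20Rik, Gm26834, Kif19a, Gm13187, Gm36988 and Bmp4. It also held 18 myelin-rule nuclei and no Pdgfra-rule nucleus. Its Enpp6-rule nuclei had a median of 8 of the 13 markers and 1.16% of UMIs on them, and the other 534 a median of 2 and 0.0503%.

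The remaining genes differed between these kinds of nuclei as well, given as a description since the clustering used them and, for the markers, since they picked the cluster. In the premyelinating-like nuclei Fyn, a kinase of early process growth, stood at 3114 CPM against 131 in the others. Tcf7l2, a transcription factor of the premyelinating stage, stood at 2112 against 114, and Bmp4, a secreted inhibitor of maturation, at 345 against 3.59. The precursor genes Tnr, Vcan and Sox6, which had not been used by the rule, stood at 6516, 724 and 1987 CPM against 187, 13.9 and 35.9. Genes of mature myelin ran the other way. Mog, a protein of the outer myelin sheath, stood at 170 CPM against 1247, Aspa, an enzyme that supplies acetate, at 46.1 against 895, and Opalin at 33.5 against 298. Mbp was high in both, at 6053 CPM against 5195.

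**Figure D2:**
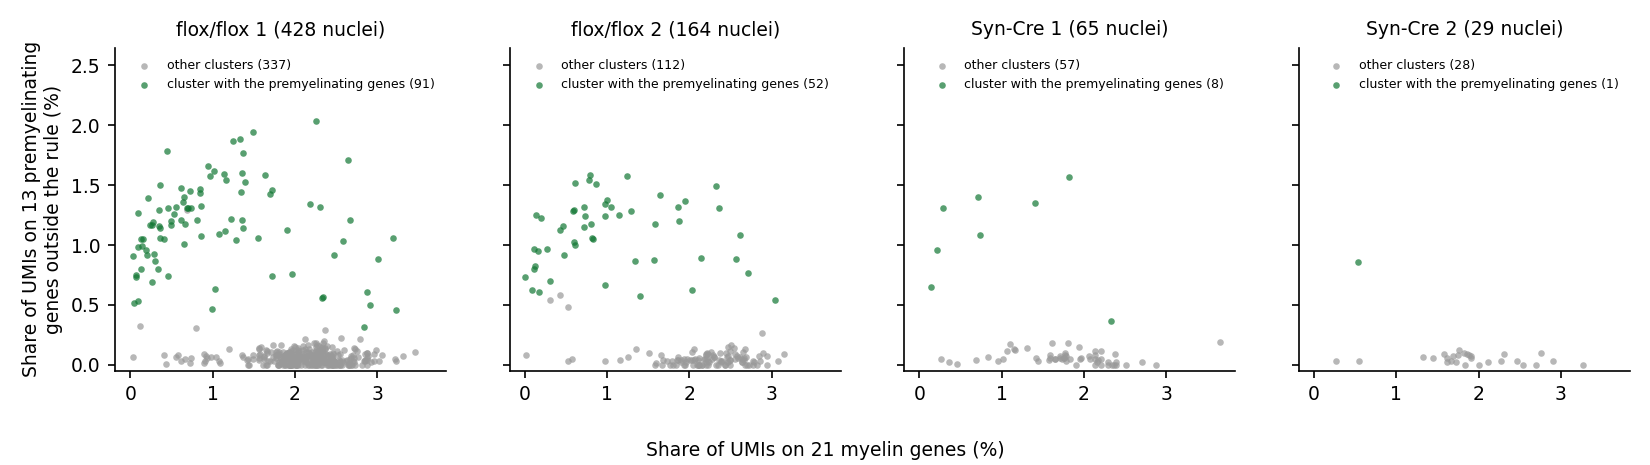
Each point is 1 Enpp6-rule nucleus, in a panel per library, with its share of UMIs on the 21 myelin genes (percent, horizontal) and on the 13 premyelinating genes outside the rule (percent, vertical). Green nuclei lie in the premyelinating-like cluster (91, 52, 8 and 1) picked on the vertical measure, and grey nuclei outside it, mostly at the foot of each panel, where their median vertical value is 0.0503% against 1.16% for the green.

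Which gene admitted a nucleus separated the kinds almost completely. Bcas1 alone admitted 525 nuclei, of which 3 lay in the premyelinating-like cluster. Gpr17 or 9630013A20Rik admitted the other 161, of which 149 did. By Enpp6 itself, the cluster held 23 of 308 members with exactly 1 UMI, 17 of 161 with 2, 21 of 78 with 3, 14 of 44 with 4, and 77 of 95 with 5 or more. Medians in the cluster were 21, 20.5, 20 and 16 UMIs of Bcas1 and 4, 5, 6.5 and 9 of Enpp6 in the 4 libraries. Outside it the medians were 3 of Bcas1 and 1 of Enpp6 in each library.

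**Figure D3:**
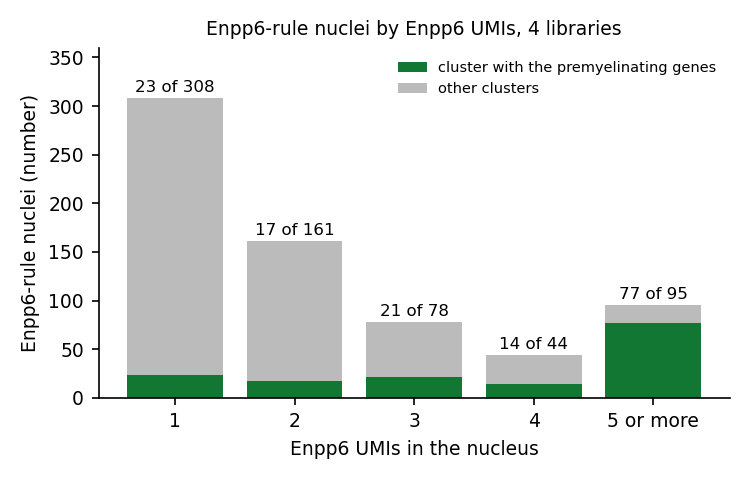
Number of Enpp6-rule nuclei of all 4 libraries by their Enpp6 UMIs, with nuclei of the premyelinating-like cluster in green and others in grey. The cluster holds 23 of 308 nuclei at 1 UMI and 77 of 95 at 5 or more.

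A single Enpp6 UMI was also found where the gene is not expected to be active. At least 1 Enpp6 UMI was present in 1.25%, 1.31%, 0.196% and 0.202% of astrocyte-rule nuclei (at least 5 UMIs of Aqp4, Gja1, Slc1a3 and Slc4a4 together, and in no lineage class), whose median depths were 5312.5, 6501, 4006 and 5921 UMIs. Among microglia-rule nuclei (at least 5 UMIs of a set of microglial genes that includes Csf1r, Cx3cr1, P2ry12 and Inpp5d) the shares were 1.12%, 0.661%, 0% and 0% at 1959, 1835, 1962 and 1999 UMIs. The background was thus higher in the flox/flox libraries, as was the share of Enpp6-rule nuclei, whose median depths were 4132.5, 4034, 4184 and 3443 UMIs. Of nuclei that met the myelin criteria with or without Enpp6, 28.1%, 17.8%, 26.9% and 18% held an Enpp6 UMI. These shares lie above those of the astrocyte-rule and microglia-rule nuclei of each library and overlap between the genotypes. Both of those classes left out nuclei that met the Enpp6 rule, which can lower their Enpp6 shares. Neuron-rule nuclei (over 10 UMIs of Slc17a7, Gad1 and Gad2 together) held Enpp6 in 4.03%, 1.91%, 0.508% and 1.24%. Their median depths were 22515, 17130, 19271 and 19390.5 UMIs. The part of free RNA in the nuclei with 1 Enpp6 UMI was not tested.

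Values at the edge of the rule were as follows. Nuclei with 0 Enpp6 UMIs that met every other condition numbered 1068, 609, 211 and 199. Nuclei with exactly 1 Enpp6 UMI and exactly 2 UMIs of their best admitting gene, just inside, numbered 58, 29, 7 and 11. Nuclei with 1 UMI of the best admitting gene, just outside, numbered 124, 42, 24 and 20.

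The premyelinating-like kind was scarcer in both Syn-Cre libraries, and made up less of their Enpp6-rule nuclei. It comprised 91, 52, 8 and 1 Enpp6-rule nuclei, that is 0.736%, 0.616%, 0.0992% and 0.0138% of kept nuclei, and 21.3%, 31.7%, 12.3% and 3.45% of the Enpp6-rule nuclei. Per 100 Pdgfra-rule nuclei they numbered 27.1, 15.1, 2.88 and 0.442. The genotypes overlapped in none of these measures. Enpp6-rule nuclei with at least 5 of the 13 outside markers numbered 105, 55, 9 and 1. That count needs no clustering but uses the markers that picked the cluster, so its like order is no separate support. Leaving Bcas1 out of the rule left 95, 56, 9 and 1 nuclei, 0.768%, 0.664%, 0.112% and 0.0138% of kept nuclei, and a ratio of mean shares of 11.4. That ratio rests on 9 and 1 Syn-Cre nuclei, and was 51.8 without Syn-Cre replicate 1 and 6.42 without Syn-Cre replicate 2. These amounted to 7.16, 6.32, 3.56 and 0.413 per 100 myelin-rule nuclei, without overlap between genotypes. At least 2 UMIs of Gpr17 were found in 34, 25, 0 and 0 Enpp6-rule nuclei. These shares and numbers per 100 nuclei each had an exact permutation p of 0.33, while the count by markers and that of Gpr17, a rule gene, are given without a test. With computed doublets left out the premyelinating-like nuclei numbered 84, 51, 4 and 1, so that 4 of the 8 nuclei of Syn-Cre replicate 1 were scored as doublets. A single nucleus stands for Syn-Cre replicate 2, so no state of the premyelinating-like kind can be read from that library.

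The number was lower in both Syn-Cre libraries under each rule or filter that was tried, but not over every denominator. With computed doublets left out the Enpp6-rule nuclei numbered 399, 154, 52 and 26, and with at least 2 Enpp6 UMIs 242, 93, 33 and 10. With every nucleus thinned to 2000 UMIs, and shallower nuclei left out, they numbered 219, 92, 38 and 11, or 1.92%, 1.21%, 0.515% and 0.162%. Among nuclei with at most 2 UMIs of the neuronal genes Slc17a7, Gad1 and Gad2, a denominator without most neurons, they were 6.15%, 3.03%, 1.31% and 0.717%. A smaller number in the tissue and a poorer recovery by the sort cannot be told apart.

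The make-up of a typical Enpp6-rule nucleus was measured by shares of its own UMIs. The median share of UMIs on the 13 premyelinating markers was 0.0744%, 0.0748%, 0.0579% and 0.0546%, and on the precursor list without Pdgfra 0.0781%, 0.0817%, 0.0666% and 0.0512%. On the myelin list it was 2.04%, 2.06%, 1.77% and 1.83%. Both Syn-Cre values were lower in each list (exact permutation p = 0.33 for each). With the mean in place of the median, the myelin shares were 1.88%, 1.81%, 1.68% and 1.86% and the genotypes overlapped (exact permutation p = 0.667), as did the premyelinating shares when Bcas1 was not used for membership (1.17%, 1.07%, 1.08% and 0.862%).

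UMIs of the Enpp6-rule nuclei were then summed per library, giving 2141469, 824977, 375434 and 122936 UMIs, and compared between genotypes in edgeR. Of 8208 genes tested, 119 passed an adjusted p of 0.05 (1.45%), 80 of them higher (0.975%) and 39 lower (0.475%) in Syn-Cre nuclei. With computed doublets left out the balance turned, to 20 higher and 60 lower among 80 calls of 6958 genes tested. The same test called 490 of 11825 genes in Pdgfra-rule nuclei (4.14%) and 109 of 11830 in myelin-rule nuclei (0.921%). The count in Enpp6-rule nuclei was 58 without flox/flox replicate 1, 25 without flox/flox replicate 2, 387 without Syn-Cre replicate 1 and 420 without Syn-Cre replicate 2. Values below are plain CPM of these sums, and fold changes are those of edgeR.

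The genes that fell were mostly high in the premyelinating-like kind. Of the 39, 34 stood at least 2-fold higher in the premyelinating-like than in the other Enpp6-rule nuclei, and of the 80 that rose none did and 61 stood at least 2-fold lower. Of all 8208 genes tested, 730 stood at least 2-fold higher and 1296 at least 2-fold lower there. These levels pool the libraries, and the Syn-Cre nuclei lay mostly outside the cluster (57 and 28, against 8 and 1 inside). A call between genotypes therefore shifts such a ratio in part by itself, and these counts are given as a description. In a sum over both kinds, a smaller share of premyelinating-like nuclei and a lower level in each nucleus cannot be told apart. Inside the cluster alone the premyelinating list, rule genes included, summed to 21073, 23291, 22309 and 18753 CPM, the last from 74 UMIs of 1 nucleus. Since the cluster was picked on these genes, a like level there follows in part from the choice.

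Gpr17, the receptor that marks the committed stage and also served the rule, stood at 59.3, 115, 7.99 and 8.13 CPM (127, 95, 3 and 1 UMIs). Both Syn-Cre libraries lay far below the controls, which is given as a description, as for every rule gene. Among the genes that the rule did not use, Bmp4 fell from 100 and 131 CPM to 34.6 and 16.3, with a log2 fold change of -1.95 (adjusted p = 0.0302), and Neu4, a sialidase of differentiating oligodendrocytes, from 82.7 and 121 to 21.3 and 24.4, with -2.16 (adjusted p = 0.0269). They were the 2 of 11 tested genes of the premyelinating list, rule genes left out, that passed. None of 11 did with 2 or more Enpp6 UMIs or with the replicate number as a block. With libraries thinned to the smallest total none of 10 did. With 1 library left out that count was 0 of 11 (without flox/flox replicate 2), 3 of 11 (without flox/flox replicate 1), 7 of 13 (without Syn-Cre replicate 2) and 10 of 13 (without Syn-Cre replicate 1), all lower. The 11 had a median log2 fold change of -1.38 against -0.0024 over all genes. Fyn, at 937, 1341, 450 and 163 CPM, missed the threshold (adjusted p = 0.0527). The rule gene 9630013A20Rik stood at 1414, 2839, 1207 and 122 CPM. Without flox/flox replicate 2, Bmp4 and Neu4 no longer passed, at log2 fold changes of -1.80 and -1.92. With computed doublets left out they did not pass either (-1.67 and -1.84, edgeR adjusted p = 0.101 and 0.0743), while 6 others of the 11 did, namely Fyn (-2.14, adjusted p = 0.0202), Itpr2 (-2.66), Rras2 (-2.96), Tcf7l2 (-2.26), Tmem163 (-2.20) and Kif19a, which then had 176, 119, 1 and 0 UMIs. The median was -2.14, with 10 of the 11 negative.

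Some precursor genes remain on for a time after a precursor commits. Of 9 tested here 3 passed, all lower. With the replicate number as a block 1 of 9 passed, and with 2 or more Enpp6 UMIs 1 of 8. Vcan, a proteoglycan of the matrix around precursors, stood at 200, 332, 50.6 and 32.5 CPM, with a log2 fold change of -2.55 ± 0.38 (adjusted p = 0.0126). Tnr, the matrix protein tenascin-R, stood at 1904, 2777, 778 and 236 CPM (-2.14, adjusted p = 0.0446), and Sox6, a transcription factor that keeps precursors immature, at 581, 781, 234 and 81.3 (-1.97, adjusted p = 0.0319). In all 3 both Syn-Cre libraries lay below both controls. They were 3 of the 9 precursor genes tested, whose median log2 fold change was -1.02, and the count ran from 1 of 8 without flox/flox replicate 2 to 5 of 11 without Syn-Cre replicate 1. Without flox/flox replicate 2, Tnr (-1.89) and Sox6 (-1.81) no longer passed, nor did Sox6 with doublets left out (-2.14, adjusted p = 0.0509). With 2 or more Enpp6 UMIs neither Tnr nor Sox6 passed (-1.76 and -1.37, edgeR adjusted p = 0.0767 and 0.109), while Vcan did. The same held with libraries thinned to the smallest total (edgeR adjusted p = 0.0845 and 0.0573). Tnr and Sox6 stood at -3.46 and -3.22 without Syn-Cre replicate 1 and at -1.57 and -1.51 without Syn-Cre replicate 2. In Pdgfra-rule nuclei none of 13 tested precursor genes passed, with a median of -0.19 against 0.0067 over all genes there, but 4 were lower with doublets left out, and without flox/flox replicate 2, 5 were lower and 1 was higher. The 13 include Pdgfra, which chose the Pdgfra-rule nuclei. Whether the changes differ between the classes was not tested.

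Among the other genes with the steepest declines, Depdc1b had 119, 26, 0 and 0 UMIs and was at least 8.12-fold lower in Syn-Cre nuclei, taking 3 counts over the group as the floor. The calcium channel subunit gene Cacna2d4 had 75, 18, 0 and 0 UMIs and was at least 5.21-fold lower. Gm36988, a noncoding RNA raised in the premyelinating-like cluster, had 248, 89, 5 and 1 UMIs (log2 fold change -3.22 ± 0.41, adjusted p = 0.00812). Ppfibp1, a liprin of cell adhesions, fell from 325 and 421 CPM to 74.6 and 24.4 (-2.66, adjusted p = 0.0107), and Frmd4a, a scaffold of cell polarity, from 3055 and 4193 to 1060 and 309 (-2.35, adjusted p = 0.0329). With doublets left out Frmd4a stood at -4.31, with 123 and 282 CPM in the Syn-Cre libraries. Its log2 fold change was -3.71 without Syn-Cre replicate 1 and -1.75 without Syn-Cre replicate 2. Calcrl (-3.91), Adam12 (-2.75) and Ptpro (-2.45) completed the 10 largest, which include Gpr17 and Vcan. Calcrl had 62, 31, 1 and 0 UMIs, so its value rests on few counts in the Syn-Cre libraries. Depdc1b did not pass without flox/flox replicate 1, nor Cacna2d4 without flox/flox replicate 2 or without Syn-Cre replicate 1. Adam12 failed without either flox/flox library (-2.80 and -2.77), and Calcrl did so without either of these or Syn-Cre replicate 1.

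Genes that rose included targets of the glucocorticoid receptor. Fkbp5, a chaperone that dampens that receptor, stood at 37.8, 64.2, 216 and 504 CPM, with a log2 fold change of 2.73 ± 0.38 (adjusted p = 0.0107). Sgk1, a kinase induced by the hormone, stood at 84.5, 130, 360 and 358 (1.75, adjusted p = 0.0146) and Zbtb16, a transcriptional repressor, at 69.6, 139, 290 and 439 (1.76, adjusted p = 0.0272). The Syn-Cre libraries lay above the controls in all 3 genes. They were 3 of 9 genes of the list tested, with a median of 1.64, while Tsc22d3 and Per1 stood at 0.31 and 0.23 and did not pass. The list had 1 gene called without flox/flox replicate 1, 2 without flox/flox replicate 2 and 4 without either Syn-Cre library. Fkbp5 passed in each fit with 1 library left out, whereas Sgk1 did not without either flox/flox library (1.43 and 2.03) nor Zbtb16 without flox/flox replicate 1 (1.31). With 2 or more Enpp6 UMIs Fkbp5 passed, but Sgk1 (edgeR adjusted p = 0.0540) and Zbtb16 (edgeR adjusted p = 0.0673) did not. Zbtb16 did not pass outside the premyelinating-like cluster either (1.36, edgeR adjusted p = 0.163). With libraries thinned to the smallest total none of 5 genes of the list passed. The same list had 5 of 8 genes higher in Pdgfra-rule nuclei and 4 of 10 in myelin-rule nuclei, where none passed without flox/flox replicate 1. In Enpp6-rule nuclei outside the premyelinating-like cluster the list summed to 548, 761, 1445 and 1840 CPM. In those inside it the sum was 375, 391, 329 and 0 CPM, from 217, 123, 19 and 0 UMIs.

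The largest rises by fold were of genes with few UMIs. Rhoj, a small GTPase, had 6, 6, 21 and 8 UMIs (log2 fold change 3.76 ± 0.55, adjusted p = 0.0126), and Hif3a, a hypoxia-inducible factor subunit, had 10, 5, 13 and 17 UMIs (3.63 ± 0.64, adjusted p = 0.0229). Gli2, a transcription factor of hedgehog signalling, followed at 3.46, and the phospholipid transfer protein gene Pitpnm3 and the phosphatase gene Ptpru at 3.26 and 2.92. Htra1, a secreted serine protease, stood at 21, 14.5, 117 and 122 CPM and rose by 2.64 ± 0.31 (adjusted p = 0.00698), with no overlap. Phyhd1, at 7, 9.7, 47.9 and 48.8 CPM, rose by 2.59 and Cdh4, a cadherin, by 2.59. With doublets left out Rhoj, Hif3a, Htra1 and Phyhd1 passed and Gli2 did not (3.67, edgeR adjusted p = 0.0645). Pitpnm3, Ptpru and Cdh4 were not tested there, and passed in neither Pdgfra-rule nor myelin-rule nuclei. Over all kept nuclei Pitpnm3 stood at 63.2, 51.5, 58.2 and 62.6 CPM and Cdh4 at 50.4, 53.5, 55.3 and 62.6. In Enpp6-rule nuclei they had 16, 1, 24 and 4 and 14, 5, 17 and 3 UMIs. Rhoj and Gli2 did not pass without flox/flox replicate 1 (2.95 and 2.46). Ptpru, Cdh4 and Phyhd1 each failed in all fits with 1 library left out except that without Syn-Cre replicate 2, and Pitpnm3 failed without flox/flox replicate 2 (2.78) or Syn-Cre replicate 1 (2.43).

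**Figure D4:**
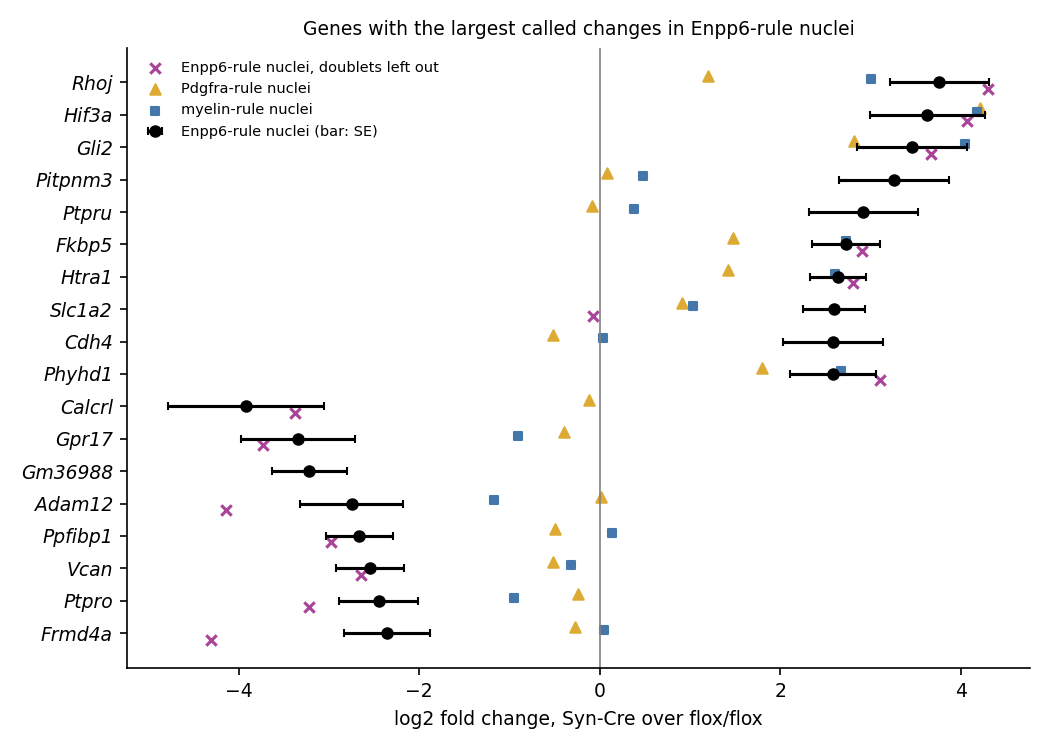
Log2 fold change (Syn-Cre over flox/flox) of the 10 most raised genes and of 8 of the 10 most lowered genes in Enpp6-rule nuclei, with SE, with Gpr17, a rule gene, as a description, beside the value with doublets left out and the values in Pdgfra-rule and myelin-rule nuclei. Depdc1b and Cacna2d4, with 0 UMIs in Syn-Cre nuclei, are not drawn, nor are values for genes that were not tested or had 0 Syn-Cre UMIs there. Fkbp5 and Htra1 lie near 2.7 in Enpp6-rule nuclei with and without doublets, while Slc1a2 moves from 2.59 to -0.076.

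Summed neuronal and astrocyte markers were higher in both Syn-Cre libraries, while summed microglial and endothelial markers were not. The 8 neuronal markers summed to 1470, 1741, 3239 and 3384 CPM and the 7 astrocyte markers to 326, 221, 775 and 1212. The most abundant of each were Meg3 and Slc1a2. The neuronal list includes Slc17a7, Gad1 and Gad2, which the rule held to at most 2 UMIs together. Its sums and tests are to that extent bound by the rule. Of 6 neuronal genes tested none passed in edgeR and 2 of 4 did in DESeq2 (median 1.05 in edgeR, and 4 of 6 passed without Syn-Cre replicate 2), and of 5 astrocyte genes 2 passed, among them Slc1a2, a glutamate transporter, at 2.59. With computed doublets left out, the astrocyte sums were 215, 200, 301 and 263 CPM and the neuronal sums 826, 941, 626 and 2567. Slc1a2 then stood at 32.6, 37.7, 19.7 and 58.3 CPM with a log2 fold change of -0.076. Grin2a, Camk2a, Chrm3, Rbfox1 and Dgkb, genes known from neurons that were among the 80 that rose, no longer passed, with log2 fold changes of 2.01, 1.11, 2.12, 1.33 and 2.22. Dgkb then stood at 31.0, 15.4, 4.93 and 311 CPM, and in all 5 genes Syn-Cre replicate 2 alone lay well above the other libraries. These 5 were chosen after their values were seen. Fkbp5 (2.90), Htra1 (2.81), Rhoj (4.30), Sgk1 (1.98) and Zbtb16 (2.00) still did. Of the 80 genes 58 could be tested without doublets, 17 passed and 54 kept their sign, while of the 39 that fell 37 could be tested, 26 passed and all 37 kept their sign. The 7 microglial markers summed to 60.7, 95.8, 74.6 and 40.7 CPM and the 5 endothelial markers to 9.81, 8.49, 5.33 and 0.

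Genes of the ER stress pathways, which SEL1L-HRD1 degradation bears on in the targeted neurons, were followed in 2 lists. Of 21 ER quality control genes tested, Manf, a secreted ER stress protein, alone passed, at 54.2, 77.6, 178 and 138 CPM (log2 fold change 1.34 ± 0.30, adjusted p = 0.0494). Without Syn-Cre replicate 2, 10 of 25 genes of the list passed, all higher, and in each of the other fits with 1 library left out none did. Manf did not pass without either flox/flox library, without Syn-Cre replicate 1 or with doublets left out (adjusted p = 0.0988), nor in DESeq2 (adjusted p = 0.113). With 2 or more Enpp6 UMIs 2 of 18 genes of the list were higher, Manf among them (edgeR adjusted p = 0.0458). None of 19 passed with doublets left out and none of 21 with the replicate number as a block. Over all Enpp6-rule nuclei the list had 19 genes with a positive log2 fold change and a median of 0.75. Its sum was 1075, 1036, 2275 and 1155 CPM, so that Syn-Cre replicate 1 stood apart and Syn-Cre replicate 2 lay near the controls. The chaperone Hspa5 followed that order at 43.4, 49.7, 197 and 48.8 CPM (adjusted p = 0.0686), as did Hsp90b1 at 82.7, 69.1, 301 and 89.5 (adjusted p = 0.0953). In Pdgfra-rule nuclei 16 of 26 genes of the list passed, all higher (10 without Syn-Cre replicate 1). In myelin-rule nuclei 8 of 26 passed, but none did without either flox/flox library, 4 of 25 did without Syn-Cre replicate 1 and 14 without Syn-Cre replicate 2.

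None of the 11 tested genes of the integrated stress response list, which follow the factor ATF4, passed in Enpp6-rule nuclei. At an unadjusted p under 0.05 there were 5, and the median log2 fold change was 0.40. With 2 or more Enpp6 UMIs 1 of 10 was higher, and with genes of at least 1 UMI 4 of 22 were. None of 10 passed with doublets left out and none of 11 with the replicate number as a block. Without Syn-Cre replicate 2, 2 of 12 passed, and without Syn-Cre replicate 1, 1 of 11. The list summed to 572, 585, 804 and 846 CPM. Ddit3, a factor induced late in this response, had 15, 4, 26 and 0 UMIs and was not tested. In Pdgfra-rule nuclei 15 of 19 genes of the list passed, all higher, with a median of 1.49. Those nuclei held 25, 0, 19 and 11 Cre UMIs, and whether this bears on their calls in either list was not tested. In myelin-rule nuclei 4 of 14 passed, and 1 of 12 without either flox/flox library.

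**Figure D5:**
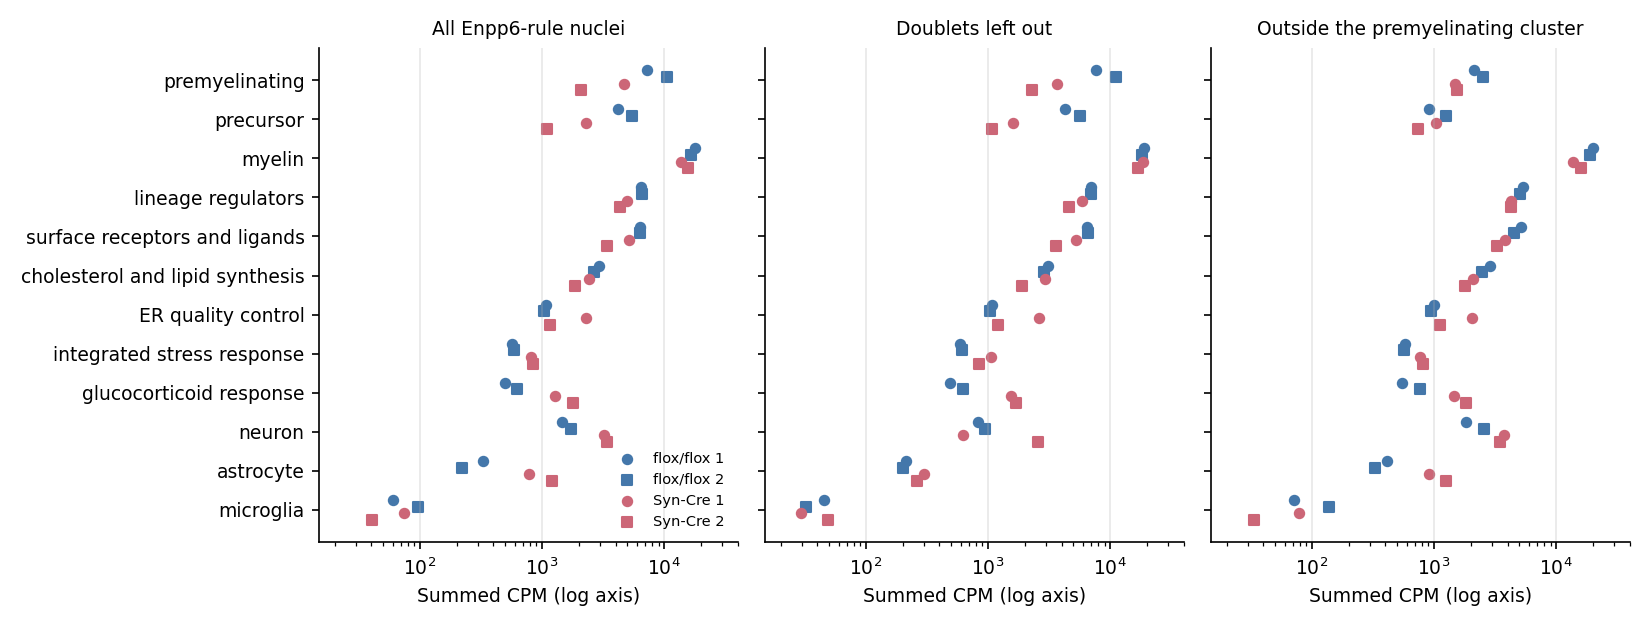
Summed CPM (log axis) of each gene list, 1 point per library, in all Enpp6-rule nuclei, in those left after doublets were removed, and in those outside the premyelinating-like cluster. In all nuclei the premyelinating list, rule genes included, runs from 10456 CPM in flox/flox replicate 2 to 2091 in Syn-Cre replicate 2 and the glucocorticoid list from 502 in flox/flox replicate 1 to 1781 in Syn-Cre replicate 2, and the astrocyte list closes up once doublets are left out (215, 200, 301 and 263).

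Genes of mature myelin and of its lipids did not pass in Enpp6-rule nuclei. None of 20 tested myelin genes passed (7 at an unadjusted p under 0.05), with a median log2 fold change of -0.35, but 2 were higher and 1 lower without Syn-Cre replicate 1, and 2 lower without Syn-Cre replicate 2. Mbp, the basic protein that compacts the membrane, stood at 5578, 5679, 4480 and 4116 CPM (-0.42 ± 0.28, adjusted p = 0.596). None of 21 genes of cholesterol and lipid synthesis passed (2 at an unadjusted p under 0.05), with a median of -0.32, and 1 was lower without Syn-Cre replicate 1.

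Regulators and receptors of the lineage gave few calls. Of 17 lineage regulators tested only Sox6 passed, none did without flox/flox replicate 2, and without Syn-Cre replicate 1, 4 were lower and 2 higher. Sox10, which all stages of the lineage need, stood at 395, 524, 288 and 382 CPM, both Syn-Cre values below both controls, without passing (-0.51, adjusted p = 0.457). Myrf, the switch to myelin gene expression, stood at 122, 127, 61.3 and 179, with the genotypes overlapping. Zfp488, a factor that promotes differentiation, stood at 46.2, 54.5, 18.6 and 8.13 CPM without passing (-1.63, adjusted p = 0.113). Of 17 surface receptors and ligands none passed apart from Gpr17, which the rule had used, and without Syn-Cre replicate 1, 4 of 18 were lower with Gpr17 counted. The neuregulin receptor gene Erbb4 stood at 2494, 2211, 1532 and 846 CPM (-0.98, adjusted p = 0.201).

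Division and death left no call. The 12 cell division genes had 10, 12, 8 and 0 UMIs in all Enpp6-rule nuclei and none could be tested, whereas in Pdgfra-rule nuclei 4 of 4 tested genes of this list were lower in Syn-Cre. Of 6 survival and death genes tested none passed (1 at an unadjusted p under 0.05), and 1 of 11 did without Syn-Cre replicate 2. Trp53, which encodes p53, stood at 54.6, 48.5, 40.0 and 48.8 CPM, and Bcl2, which blocks apoptosis, at 12.1, 15.8, 45.3 and 24.4 (1.55, adjusted p = 0.149).

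Against their neighbours in the lineage, Enpp6-rule nuclei were led by genes of their 2 kinds, given as a description since the rule divided the classes. Over Pdgfra-rule nuclei the highest ratios of pooled CPM were those of 4930420G21Rik (88.0), Cldn14 (75.6), A230001M10Rik (71.4), Gm48508 (66.7), Hapln2 (63.5) and Anln (52.2). Hapln2, a link protein of nodes of Ranvier, stood at 12.6 CPM in premyelinating-like nuclei and 422 in the others, while Cldn14, a claudin, stood at 313 and 107. St18, a transcription factor of the lineage, stood at 2613 and 3390, close in both kinds. Over myelin-rule nuclei the highest ratios were those of Tnr (29.5), Itpr2 (16.4), Frmd4a (12), Tcf7l2 (9.29), Sema5a (9.19) and Fyn (8.95). These ratios pool the libraries and do not hold in each. In Syn-Cre replicate 2 the genes stood, in that order, at 236, 65.1, 309, 73.2, 97.6 and 163 CPM. Pooled myelin-rule nuclei had 65.6, 26.8, 251, 71.5, 54.0 and 107. Itpr2, an ER calcium channel, was detected in 25.9% of Enpp6-rule nuclei and stood at 1510 CPM in premyelinating-like nuclei and 32.3 in the others. All 15 genes that led over myelin-rule nuclei were higher in the premyelinating-like kind.

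Outside the premyelinating-like cluster 21 of 6912 genes were called (0.304%), 17 higher and 4 lower. Fkbp5 (2.88), Sgk1 (2.57) and Htra1 (2.40) were among those higher, and so was the astrocyte marker Slc1a2 (2.28). The 4 lower genes were Ntng1, Thsd7a, Grik1 and 9630013A20Rik, and the last of these was used by the rule and leads the cluster whose nuclei were left out. The premyelinating list, rule genes included, summed to 2110, 2535, 1495 and 1538 CPM in these nuclei. They lay in clusters that differed by library, and the cluster with the most of them held 167, 71, 21 and 13, while another held 119 nuclei of flox/flox replicate 1 and 3, 1 and 0 of the other libraries. A further cluster ran with genotype, holding 0, 1, 12 and 11 Enpp6-rule nuclei (0%, 0.610%, 18.5% and 37.9%) and 0, 4, 56 and 185 myelin-rule nuclei. Where a cluster is mostly of 1 library, that library's own effect and that of its genotype cannot be told apart.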

How the data were processed

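Single-nucleus RNA-seq libraries (10x Genomics 3′ v3) of 4 mice were used. The deposited matrices hold UMI counts per gene and nucleus (32286 features, raw counts) that the authors made with Cell Ranger 6.1.0 on GRCm38, per the submitters' processing notes. How introns and strand were treated is not given in the sources used here. Of 12599, 8481, 8173 and 7366 deposited nuclei, 237, 45, 101 and 132 were left out for 600 or fewer genes and 0, 0, 7 and 3 for mitochondrial UMIs. The libraries kept 122716599, 76589308, 75144161 and 73992811 UMIs.

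The members and gene lists were chosen with earlier results of these data known. Gene positions came from GENCODE vM21, which holds 32235 of the features. The Enpp6-rule, Pdgfra-rule and myelin-rule nuclei were clustered together without the rule genes, and the premyelinating-like cluster is the one with the highest mean share of UMIs on the other 13 premyelinating markers (Scanpy 1.11.5, 2000 variable genes, 20 principal components, 20 neighbours, Leiden resolution 0.5). Doublets were scored with Scrublet and kept, except in an alternative that left out the highest-scoring 1223, 569, 520 and 418 nuclei (0.8% per 1000 nuclei). UMIs summed over the nuclei of a class and library were tested in edgeR 4.0.16 (R 4.3.3; TMM, filterByExpr, quasi-likelihood test, genotype as the only term, Benjamini-Hochberg adjustment over all genes, threshold 0.05), and single values per library by two-sided exact permutation tests. Alternatives were DESeq2 1.42.0, a filter of at least 1 UMI, a replicate block, each library left out, other member rules and thinning. The code was tested on simulated data (dispersion set to 0.05). With the depths of the Enpp6-rule nuclei, edgeR recovered 6 of 98 genes changed 2-fold and 65 of 91 changed 4-fold. A gene that did not pass in these nuclei can therefore still have changed. Besides rule and list genes, the text names the 10 called genes that rose most and the 10 that fell most among those with at least 20 UMIs, and leaders among the 15 genes with the highest pooled ratio over each neighbouring class (at least 100 UMIs, detected in at least 25% of members). Synaptic genes, the called genes outside the cluster and cluster leaders were named after their values were seen. Since each library is 1 mouse, p-values measure the spread between 2 mice per genotype. Values of some listed genes are not reported here.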

Additional observations from a re-analysis of the deposited data

Results flagged for a closer look

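A Cre transgene signal of 490 UMIs was found in the library labelled Sel1L flox/flox replicate 1, where the genotype gives none, against 0 UMIs in Sel1L flox/flox replicate 2 and 262 and 260 in the Sel1L Syn-Cre libraries. In the Enpp6-rule nuclei of that library Cre had 2 UMIs, and in its Pdgfra-rule nuclei 25. Without that library, the share of Enpp6-rule nuclei was 1.94% in the remaining flox/flox library against 0.806% and 0.401%. Cdh4 rose in Enpp6-rule nuclei (log2 fold change 2.59, edgeR adjusted p = 0.0449), from 14, 5, 17 and 3 UMIs, and was not tested with doublets left out. In Pdgfra-rule nuclei it stood at -0.52, the opposite sign, without passing (edgeR adjusted p = 0.215). The difference between these classes was not tested.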

How the results depend on the processing

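The share of Enpp6-rule nuclei among kept nuclei and their number per 100 Pdgfra-rule nuclei were lower in Syn-Cre mice under every alternative run. The number per 100 myelin-rule nuclei, a difference of -6.54, ranged from -13.4 to 0.327 with 1 library left out (0.310 without Syn-Cre replicate 2). The 119 genes called in Enpp6-rule nuclei became 77 with DESeq2, which gave an adjusted p to 2320 of the 8208 genes, 422 with genes of at least 1 UMI, 80 (20 higher, 60 lower) with doublets left out, 39 with 2 or more Enpp6 UMIs, 7 with libraries thinned to the smallest total, 21 outside the premyelinating-like cluster (an alternative chosen after seeing the data) and 25 to 420 with 1 library left out. The 490 genes of Pdgfra-rule nuclei became 192 with DESeq2 and 771 with genes of at least 1 UMI. The 109 genes of myelin-rule nuclei became 385 with genes of at least 1 UMI and 1 to 460 with 1 library left out. With the replicate number as a block 28 genes were called in Enpp6-rule nuclei and 388 in myelin-rule nuclei, but the replicate number coincides with sex, so the block also removes sex. Deviations of same-numbered libraries correlated at 0.0193, 0.102 and 0.132 in the Enpp6-rule, Pdgfra-rule and myelin-rule nuclei, and at -0.0572, -0.0203 and 0.05 with sex genes removed, and the numbers were not taken to pair the mice. Slc1a2, at 2.59, stood at -0.076 with doublets left out. Of the 20 most changed genes, 14 got no adjusted p from DESeq2 and the other 6 (Fkbp5, Slc1a2, Ppfibp1, Vcan, Ptpro and Frmd4a) passed there, as did Tnr, Sox6, Sgk1 and Zbtb16. Under the block 8 of the 20 no longer passed (Cdh4, Phyhd1, Ptpru, Adam12, Calcrl, Cacna2d4, Ptpro and Frmd4a), nor did Bmp4, Neu4, Tnr, Sox6 and Manf. Outside the cluster 11 of 16 tested did not pass. Fkbp5, Htra1, Hif3a, Gm36988, Ppfibp1 and Vcan passed with doublets left out, under the block and in each fit with 1 library left out. With libraries thinned to the smallest total, Vcan passed, Fkbp5, Htra1, Gm36988 and Ppfibp1 did not, and Hif3a was not tested. With 2 or more Enpp6 UMIs 8 of 16 tested did not pass (Hif3a, Gli2, Phyhd1, Depdc1b, Calcrl, Gpr17, Adam12 and Frmd4a). Nor did Bmp4, Neu4, Tnr, Sox6, Sgk1 and Zbtb16. Neither Hif3a nor Ppfibp1 passed outside the cluster. With genes of at least 1 UMI, 7 of 26 ER quality control genes were higher and 12 of 13 premyelinating genes, rule genes left out, were lower in Enpp6-rule nuclei. Under the block and with genes of at least 1 UMI, 4 of 13 precursor genes were lower in Pdgfra-rule nuclei. That list includes Pdgfra, which chose those nuclei. The causes were not tested. Syn-Cre replicate 2 held 122936 UMIs in 29 nuclei, which limits every level given for it.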
